A study of Homo sapiens with 9 samples.

Results

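The comparison of hairpin shLSD1 #1 with a control shRNA was made in ACC-MESO-1, a human cell line of malignant pleural mesothelioma, which arises from the mesothelium around the lung. Its members were the 17709 transcript clusters with a single gene symbol, out of 21448 clusters on the Clariom S array, a short-oligonucleotide array that reads well-annotated genes. Each cluster was read as the mean of the 3 shLSD1 #1 arrays minus the mean of the 3 control arrays. No measured value entered the rule for these members, but it and the gene lists below were set with earlier results of these data known. The description is about the genes that were expressed and that belong to neither the interferon response, MHC class I nor the contractile apparatus, which were set aside as 187 genes. A gene counted as expressed when its cluster exceeded the 95th percentile of 612 negative control probe sets on all 6 arrays, and 7510 of the other named clusters (7505 genes) did so.

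The series holds 9 arrays in 3 groups of 3: control shRNA, shLSD1 #1 and shLSD1 #2, a second hairpin against LSD1. All groups are infected cells of the same line, kept in the same medium with serum, so the controls carry a hairpin vector too. The labels give no time after infection, no selection step and no statement that the 3 arrays of a group came from separate cultures. The p-values therefore measure only the spread between these arrays, which may be technical. Both hairpins are set against the same 3 control arrays, so their changes are not independent of each other.

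LSD1 is a flavin-dependent enzyme that removes methyl groups from lysine 4 of histone H3 at enhancers and promoters. It acts mostly inside repressor complexes with the scaffold RCOR1 (CoREST) and the deacetylases HDAC1 and HDAC2, and it holds down lineage programmes in many cell types. In tumour cells, lowering LSD1 has been studied as a way to change cell identity and growth.

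The marker genes gave very high signals for some keratins, while most mesothelial markers were not seen. KRT8 and KRT18, the keratins of simple epithelia, were among the highest signals on every array, with control values (log2) of 17.42, 17.42 and 17.44 for KRT8 and of 16.96, 16.98 and 16.98 for KRT18. MSLN, the mesothelial surface protein mesothelin, read 12.01, 11.91 and 12.06 on the control arrays and 11.13, 11.30 and 11.001 on the shLSD1 #1 arrays. The groups did not overlap, and MSLN fell by 0.85 ± 0.17 (log2 change ± SE, n = 3 arrays per group, limma adjusted p = 0.00729). WT1, the mesothelial transcription factor, lay below the negative controls on all control arrays and above them on all shLSD1 #1 arrays, at least 1.35-fold higher. Of 19 mesothelial markers on the array, 12 stayed below the negative controls on all 6 arrays, among them CALB2 (calretinin), KRT5 and KRT19, so these defining markers were not seen. Over that list 3 rose and 1 fell, or 5 rose with array weights. The rises were those of WT1, of UPK1B, below on all 6 arrays, and of UPK3B, a uroplakin, which was below on all control arrays and above on 2 of the 3 hairpin arrays (fitted change 1.33, adjusted p = 0.00325). All 10 endothelial and all 12 lung epithelial markers were below on all 6 arrays, as were 9 of 11 leukocyte markers. LSD1's own transcript was not analysed here, and the knockdown was thus not checked. Among its partners, HDAC2 rose by 0.47 ± 0.11, while RCOR1 (0.30 ± 0.16, adjusted p = 0.267) and HDAC1 (0.12 ± 0.13, adjusted p = 0.571) did not pass the test. The spike-in block ended the calls of MSLN, WT1, UPK3B, UPK1B and HDAC2 (adjusted p between 0.167 and 0.573). The HDAC2 call also ended without control replicate 3 (adjusted p = 0.0673) or shLSD1 #1 replicate 4 (0.0628).

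Array medians lay between 6.39 and 6.43, and 42.0% to 46.2% of clusters exceeded the negative control percentile. The hybridization spike-ins, transcripts added to every array in fixed amounts, read 11.30 to 11.38 on the control arrays and 10.80 to 10.84 on the shLSD1 #1 arrays, without overlap. Spike-in signal and group therefore cannot be told apart in this comparison. A second fit held the spike-in class (high or low) as a block, here called the spike-in block. It can read the effect of the class solely in the shLSD1 #2 arrays, which are of both classes. In that fit 226 of the expressed clusters passed, and the paragraphs below name the genes whose calls ended.

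Of the 7510 expressed clusters, 2128 (28.3%) passed the test, against 16.9% of all named clusters and 15.8% of all clusters (7.85% higher and 7.94% lower). They divided almost evenly, with 1057 higher (14.1%) and 1071 lower (14.3%) in shLSD1 #1 cells. In all 2128 the values of the groups did not overlap. Expressed genes that did not pass could also be without overlap, as KRT8, KRT18 and HDAC1 were, so this adds no separate support. Most of these changes were small: the median absolute log2 change was 0.67, the median standard error of an expressed cluster was 0.13, and 178 rose (2.37%) and 220 fell (2.93%) by at least 2-fold. Among all named clusters those shares were 1.8% and 2.37%, and among all clusters 1.65% and 2.16%. Only 8 rose and 18 fell at least 4-fold. The share of named clusters past the test, with the set-aside genes included, went from 4.23% among those with a mean under 6 to 35.3% between 11 and 12, and was 22.8% above 14, while the median standard error went from 0.20 to 0.12 and 0.11. Sensitivity to a small change thus varied with signal, and a gene of low signal that did not pass is not shown to be unchanged. List counts below are over all members on the array unless expressed members are named. The shares to set beside them are 8.48% of all named clusters higher and 8.42% lower. For lists of mainly expressed genes they are 14.1% and 14.3%.

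**Figure D1:**
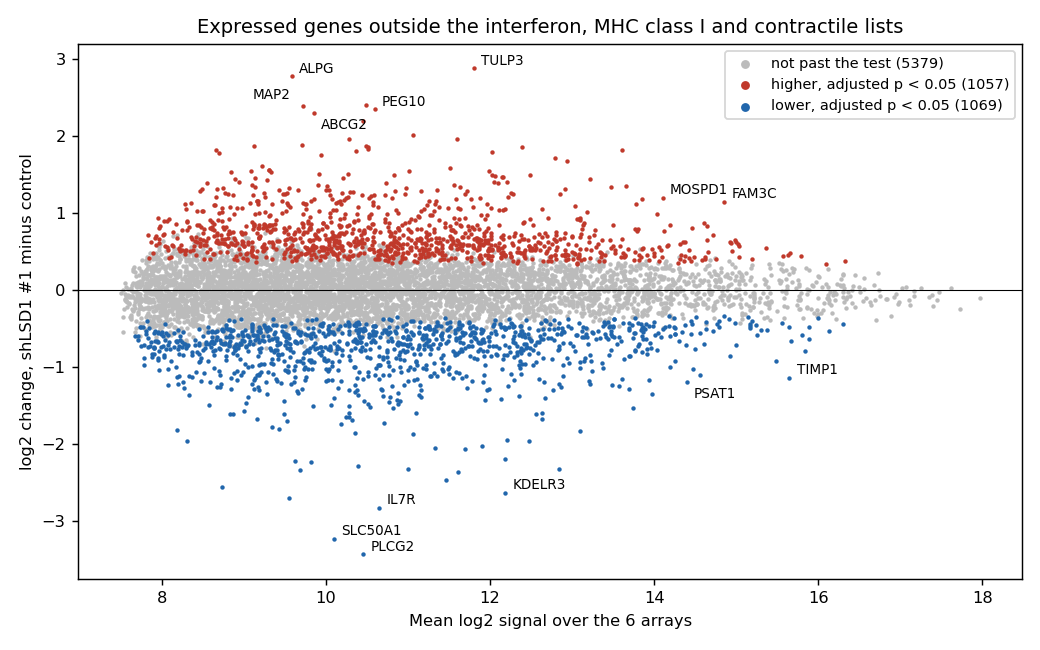
Log2 change between shLSD1 #1 and control (vertical axis) against the mean log2 signal of the 6 arrays (horizontal axis) for the expressed genes outside the set-aside lists, 1057 higher and 1069 lower past the limma test in colour and the others in grey. Changes beyond 1 on the log2 scale occur at low and at high signal, up to TIMP1, and PLCG2 and SLC50A1 lie lowest while TULP3 and ALPG lie highest.

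The deepest fall among expressed genes was that of PLCG2, which encodes the phospholipase C gamma 2 best known downstream of immune receptors. It read 12.21, 12.30 and 12.002 on the control arrays and 8.77, 8.83 and 8.62 on the shLSD1 #1 arrays. Its lowest control array stood far above its highest shLSD1 #1 array, and the gene fell by 3.43 ± 0.15 (adjusted p = 1.63e-06). SLC50A1, a sugar transporter of the SWEET family, read 11.50, 11.84 and 11.80 on the control arrays and 8.57, 8.52 and 8.37 on the shLSD1 #1 arrays. The groups were as clearly apart, and SLC50A1 fell by 3.23 ± 0.16. IL7R, the interleukin-7 receptor chain, read 12.11, 12.11 and 11.96 on the control arrays and 9.24, 9.01 and 9.45 on the shLSD1 #1 arrays. All 3 hairpin arrays were low, and the gene fell by 2.83 ± 0.16. KDELR3, which returns escaped proteins to the endoplasmic reticulum, read 13.45, 13.44 and 13.62 on the control arrays and 11.01, 10.89 and 10.70 on the shLSD1 #1 arrays. It fell by 2.63 ± 0.12 and remained among the well-expressed genes.

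HEG1, a mucin-like membrane protein that is used as a marker of mesothelioma, read 10.18, 9.90 and 9.94 on the control arrays and 7.22, 7.68 and 7.48 on the shLSD1 #1 arrays. The hairpin arrays came close to the negative control percentiles, which averaged 7.17 there, and the gene fell by 2.55 ± 0.14. PLAAT4 (also called RARRES3), a phospholipase induced by retinoids and by interferon, fell by 2.70 ± 0.18 and was on none of the set-aside lists. DDIT4, a stress-induced inhibitor of mTORC1 signalling, read 10.73, 10.85 and 10.96 on the control arrays and 8.79, 8.70 and 8.06 on the shLSD1 #1 arrays. Replicate spread was widest here among the 24 largest changes, and the groups still did not overlap, and DDIT4 fell by 2.33 ± 0.24 (adjusted p = 0.000247). The other large falls were in GPRC5B, an orphan receptor induced by retinoic acid (-2.47 ± 0.13), S100A3, a calcium-binding protein (-2.36 ± 0.20), SLC71A1, an orphan transporter also known as MFSD14A (-2.32 ± 0.11), FAXDC2, a fatty acid hydroxylase domain protein (-2.32 ± 0.11), and CLIC3, an intracellular chloride channel protein (-2.29 ± 0.19).

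The largest rise was that of TULP3, which carries receptors into the primary cilium. It read 10.34, 10.30 and 10.45 on the control arrays and 13.36, 13.13 and 13.22 on the shLSD1 #1 arrays. Replicates differed by far less than the groups, and TULP3 rose by 2.88 ± 0.11 (adjusted p = 5.72e-07). ALPG, the germ cell alkaline phosphatase, read 8.35, 7.92 and 8.32 on the control arrays and 10.90, 11.04 and 10.95 on the shLSD1 #1 arrays. Control arrays were low but above the negative controls, and the rise was 2.77 ± 0.14. CCN5, a matricellular protein of the CCN family, read 9.42, 9.35 and 9.10 on the control arrays and 11.64, 11.78 and 11.66 on the shLSD1 #1 arrays. The hairpin arrays were all high, and CCN5 rose by 2.40 ± 0.13. MAP2, a microtubule-associated protein of dendrites, read 8.56, 8.43 and 8.58 on the control arrays and 11.06, 10.84 and 10.84 on the shLSD1 #1 arrays. It rose by 2.39 ± 0.13, again with no overlap between the groups.

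PEG10, a paternally expressed gene of retrotransposon origin that is needed in the placenta, rose by 2.35 ± 0.15 from control values of 9.28, 9.61 and 9.37. ABCG2, a drug and urate efflux pump, rose by 2.29 ± 0.13 from 8.72, 8.62 and 8.75 to 11.04, 11.12 and 10.82. In both genes every hairpin array exceeded every control array. The other large rises were in FAM117B (2.19 ± 0.11), RFLNB, a filamin-binding protein (2.01 ± 0.11), TNNC1, troponin C of cardiac and slow muscle (1.97 ± 0.14), SUN3, a nuclear envelope protein of the testis (1.96 ± 0.15), PTBP2, a splicing regulator of neurons (1.88 ± 0.13), and NEXN, an actin-binding protein of the muscle Z-disc (1.87 ± 0.14). TNNC1 and NEXN are muscle genes that the contractile list did not hold.

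All 24 of these genes remained past the threshold with the spike-in block, with adjusted p of at most 0.0263, and their changes moved by at most 0.77. Against the same control arrays, shLSD1 #2 gave -3.85 for PLCG2, -2.48 for SLC50A1, 2.72 for TULP3 and 2.85 for ALPG. By limma, 0 clusters differed between the hairpins, with a smallest adjusted p of 0.446, and 679 expressed clusters had an unadjusted p under 0.05.

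**Figure D2:**
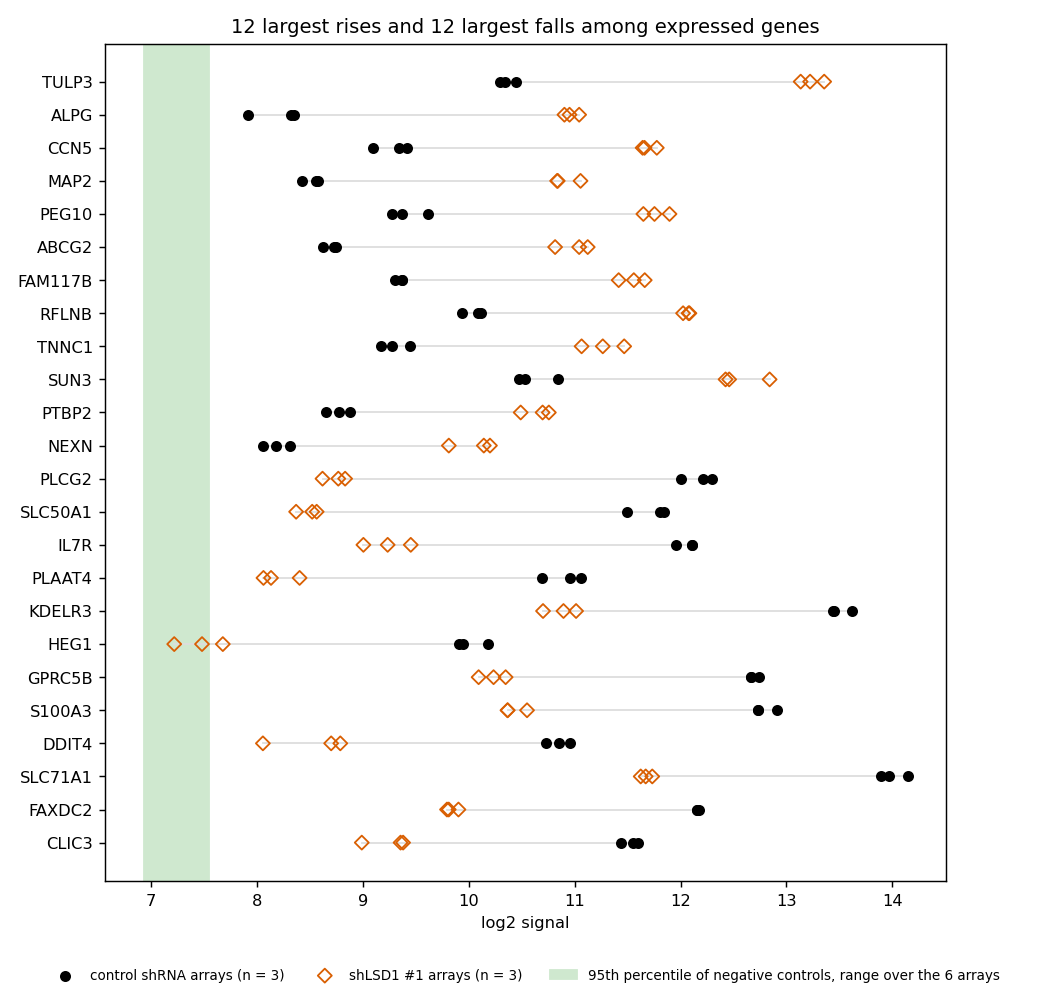
Log2 signal of the 12 largest rises and 12 largest falls among expressed genes on the 3 control arrays and the 3 shLSD1 #1 arrays, 1 point per array. A band marks the range of the negative control percentiles. In each gene the points of the groups do not overlap, and the replicates of TULP3, FAXDC2 and SLC71A1 lie close together while those of DDIT4 spread more.

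Another set of genes was seen in only one of the groups. A total of 110 named clusters outside the set-aside lists were above the negative controls on all shLSD1 #1 arrays and on no control array, and 72 of them passed the test, all higher. In the opposite class, 37 clusters were above on all control arrays and on no shLSD1 #1 array, and 36 of them passed. These classes are defined by the difference, so the counts are a description. For such genes the side below the negative controls is only bounded, and the fold is a lower limit measured from the mean percentile of that group.

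ANKRD1, a stretch-responsive protein of muscle and stroma, read 6.13, 7.13 and 7.38 on the control arrays and 10.23, 10.52 and 9.79 on the shLSD1 #1 arrays. One control array lay about 1 unit under the others, all 3 were below the negative controls, and ANKRD1 was at least 6.85-fold higher with the hairpin. CREB3L3, a membrane-bound transcription factor of liver triglyceride metabolism, was at least 3.33-fold higher. ROPN1L, a protein of the sperm flagellum, was at least 3.12-fold, and CDH12, a brain cadherin, at least 3.09-fold higher. CCDC74B and RAB15, a small GTPase of endocytic recycling, were at least 2.6-fold and 2.29-fold higher. Under the spike-in block CCDC74B and RAB15 no longer passed (adjusted p between 0.0667 and 0.109).

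Among the genes lost from view, KLF4, a zinc-finger transcription factor of epithelial differentiation and stem cells, read 8.40, 8.49 and 8.65 on the control arrays and 5.78, 5.82 and 5.88 on the shLSD1 #1 arrays. The hairpin arrays lay well under the negative controls and close together, and KLF4 was at least 2.53-fold lower. IGFL2, a member of the small IGF-like family, was at least 3.98-fold lower, from control values of 9.39, 9.39 and 8.72. SLC2A13, a transporter of myo-inositol, was at least 3.1-fold lower, and RHEBL1, a GTPase related to the mTORC1 activator RHEB, at least 3.01-fold. LYPD3, a membrane-anchored relative of the urokinase receptor, was at least 2.75-fold lower, and ITPR3, a calcium release channel of the endoplasmic reticulum, at least 2.71-fold.

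**Figure D3:**
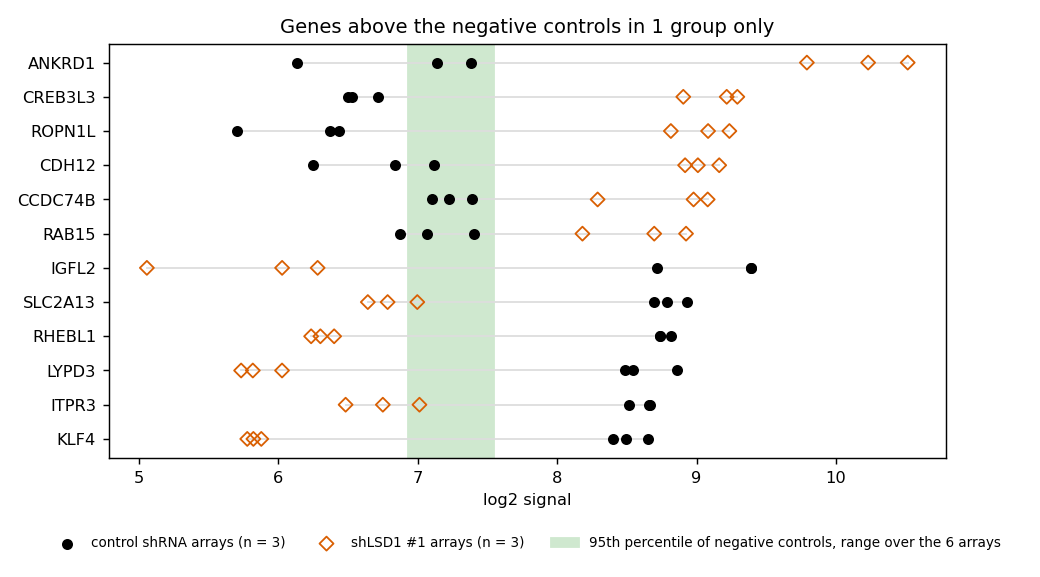
Log2 signal on the 3 control and 3 shLSD1 #1 arrays of the 6 genes with the largest lower-bound rise and the 6 with the largest lower-bound fall, 1 point per array. A band marks the range of the negative control percentile over the 6 arrays. Each gene lies under the percentile on all arrays of one group and over it on all arrays of the other.

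Many genes of amino acid supply fell. ATF4 is the transcription factor through which cells answer amino acid shortage and endoplasmic reticulum stress, and it acts with C/EBP partners on amino acid response elements such as TGATGNAA, where N is any base. The promoters of 3 of its target genes with this sequence are shown as examples, those of CHAC1 and ASNS, with large falls, and of AARS1, a synthetase with a smaller one, in 68-base windows of the RefSeq promoters of GRCh38.p14, on the strand of the gene, with the match in capitals.
CHAC1 (chr15:40953232-40953299, + strand): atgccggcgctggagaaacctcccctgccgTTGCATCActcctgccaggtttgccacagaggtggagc
ASNS (chr7:97872439-97872506, - strand): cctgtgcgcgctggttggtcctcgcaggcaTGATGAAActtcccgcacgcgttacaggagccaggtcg
AARS1 (chr16:70289656-70289723, - strand): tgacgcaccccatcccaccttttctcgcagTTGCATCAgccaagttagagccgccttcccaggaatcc
In CHAC1 and AARS1 the capitals read the element on the opposite strand. Searched on both strands over 250 bases before to 50 bases after each start, the element was in 8 of the 33 promoters found for list members on the array (24.2%), in 7 of the 22 of members past the test (31.8%), in 1.67% of the promoters of expressed genes, and in 3.67% of all 27305 promoters of that length. A match is a sequence description only.

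Of 37 genes of the ATF4 response on the array, 26 fell and 0 rose, with a median change of -0.70, where 8.42% of all named clusters fell and 8.48% rose and their median was 0.03. The 29 expressed members gave 24 falls and 0 rises, where 14.3% of expressed clusters fell and 14.1% rose. CHAC1, which breaks down glutathione, read 12.68, 12.60 and 12.91 on the control arrays and 10.88, 10.58 and 10.53 on the shLSD1 #1 arrays. It was high on every control array and fell by 2.07 ± 0.15 (adjusted p = 3.01e-05). ASNS, asparagine synthetase, read 12.72, 12.68 and 12.55 on the control arrays and 11.29, 11.06 and 11.30 on the shLSD1 #1 arrays. Its replicates were close and it fell by 1.43 ± 0.12. NUPR1, a stress-induced chromatin protein, fell by 1.59 ± 0.17, and CBS, which makes cystathionine, by 1.43 ± 0.14. ATF4 itself fell by 0.85 ± 0.10, from 14.12, 14.18 and 14.10 to 13.30, 13.36 and 13.19. Transfer RNA synthetases of the list fell less, with -0.94 for AARS1 and -0.97 for NARS1. PCK2, a mitochondrial enzyme of gluconeogenesis, was at least 1.86-fold lower and below the negative controls on all hairpin arrays. ATF4, AARS1, NARS1 and PCK2 did not pass with the spike-in block (adjusted p between 0.0579 and 0.28). Of the 26 falls, 21 to 24 were called with 1 array left out, and 5 remained with that block, those of CHAC1, ASNS, NUPR1, CBS and DDIT4.

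In serine synthesis and one-carbon metabolism, 6 of 18 genes fell and 1 rose, where 8.42% of all named clusters fell and 8.48% rose. The 15 expressed members gave 6 falls and 1 rise, where 14.3% of expressed clusters fell and 14.1% rose. PHGDH, the entry enzyme of serine synthesis, read 12.89, 12.83 and 13.04 on the control arrays and 10.93, 11.07 and 10.68 on the shLSD1 #1 arrays. PHGDH fell by 2.03 ± 0.14, the most in the list, and PSAT1, the next enzyme, fell by 1.19 ± 0.11 from 14.93, 14.99 and 15.06. MTHFD1L, which makes formate in mitochondria, fell by 0.97 ± 0.12. Among 32 amino acid and glucose transporters, 14 fell and 3 rose, with a median of -0.37. Once low values were set to the negative control percentile, that median was -0.07. The 18 expressed members gave 10 falls and 2 rises, with a median of -0.44. SLC7A5, which imports large neutral amino acids, fell by 1.11 ± 0.12, SLC6A9, a glycine transporter, by 1.23 ± 0.14, and SLC2A3, a high-affinity glucose transporter, by 1.28 ± 0.10. SLC2A14, a near-identical neighbour of SLC2A3 whose probes may read the same transcripts, fell by 1.03 ± 0.10. SLC7A7, an exporter of basic amino acids, rose by 1.13 ± 0.16. Calls that ended with the spike-in class in the fit were those of MTHFD1L, SLC7A5 and SLC6A9 (adjusted p between 0.0552 and 0.0715).

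Redox, sugar and respiratory genes were mixed with more falls than rises. Of 27 NRF2 and glutathione genes, 9 fell and 1 rose, with a median of -0.30. Once low values were set to the negative control percentile, that median was -0.10. The 17 expressed members gave 9 falls and 0 rises. ME1, malic enzyme, fell by 1.06 ± 0.11, PGD of the pentose phosphate pathway by 0.92 ± 0.16, and GCLM, a subunit of the enzyme that starts glutathione synthesis, by 0.84 ± 0.14. HMOX1, haem oxygenase, went the other way, from 7.86, 7.72 and 7.44, the lowest of them below the negative controls, to 9.04, 9.67 and 8.82. Of 36 glycolysis and hypoxia genes, 9 fell and 6 rose, with HK1, hexokinase 1, at -1.11 ± 0.16 and ADM, the peptide adrenomedullin, at 1.29 ± 0.12. All 51 respiratory chain genes were expressed, and 13 fell and 2 rose with a median of -0.21, together near the 28.3% of expressed clusters past the test, or 23 and 5 with a trended robust prior. Within cytochrome c oxidase, COX5A read 13.98, 14.11 and 14.23 on the control arrays and 12.75, 13.03 and 12.84 on the shLSD1 #1 arrays and COX7C read 13.07, 12.91 and 12.96 on the control arrays and 14.30, 14.31 and 14.39 on the shLSD1 #1 arrays. These subunits of the same complex moved in opposite directions, by -1.24 and 1.35, without overlap between groups in either. The spike-in block ended the calls of PGD, GCLM, HMOX1, HK1 and COX5A (adjusted p between 0.0966 and 0.267).

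Lipid genes moved both ways. Of 33 fatty acid genes, 9 rose and 6 fell, and of the 22 that were expressed 4 rose and 6 fell. PPARG, the nuclear receptor of fat storage, read 7.72, 8.05 and 8.46 on the control arrays and 9.73, 9.38 and 9.71 on the shLSD1 #1 arrays. The hairpin arrays were all higher, with a rise of 1.53 ± 0.19. CD36, a fatty acid receptor, and ACSL5, an acyl-CoA synthetase, were below the negative controls on all control arrays and just above them on all hairpin arrays, at fitted changes of 2.18 and 1.47, with no bound above 1. FADS2, a fatty acid desaturase, fell by 1.14 ± 0.14. In cholesterol synthesis 7 of 22 genes fell and 2 rose, or 5 rose when the clusters of lowest signal were dropped. FDPS, farnesyl diphosphate synthase, fell by 0.83 ± 0.11, and PMVK, phosphomevalonate kinase, rose by 0.73 ± 0.14. Under the spike-in block PPARG, FADS2, FDPS and PMVK no longer passed (adjusted p between 0.0925 and 0.126). Of the fatty acid genes, the 6 falls became 3 without control replicate 2 or shLSD1 #1 replicate 6.

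NF-kB targets and their feedback inhibitors fell as well. NF-kB dimers bind sites close to GGNNTTTCC and induce both cytokines and the proteins that shut the pathway down. Promoters of 2 feedback inhibitors and 1 chemokine of the list are shown because all 3 genes fell, from the same RefSeq table and build, on the strand of the gene, with matches in capitals.
NFKBIA (chr14:35404792-35404999, - strand): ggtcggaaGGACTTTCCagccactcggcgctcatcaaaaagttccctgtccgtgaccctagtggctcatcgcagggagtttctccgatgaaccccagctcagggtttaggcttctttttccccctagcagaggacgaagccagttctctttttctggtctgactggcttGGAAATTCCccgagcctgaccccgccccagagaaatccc
TNFAIP3 (chr6:137867162-137867242, + strand): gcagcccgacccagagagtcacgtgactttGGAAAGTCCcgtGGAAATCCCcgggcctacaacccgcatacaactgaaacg
CXCL1 (chr4:73869285-73869378, + strand): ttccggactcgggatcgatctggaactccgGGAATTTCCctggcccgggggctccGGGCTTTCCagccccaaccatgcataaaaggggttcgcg
Each of the 3 stretches holds 2 matches, in CXCL1 both on the strand shown, in TNFAIP3 both on the opposite strand. The motif was in 6 of 11 promoters found for list members past the test (54.5%), in 14 of 23 for list members on the array (60.9%), in 6.83% of promoters of expressed genes and in 6.26% of all promoters. Members past the test and the whole list held it at a similar share.

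Of 27 NF-kB genes on the array, 14 fell and 0 rose, with a median of -0.54, or -0.37 once low values were set to the negative control percentile. NFKBIA, the inhibitor that holds NF-kB in the cytoplasm, read 11.72, 11.82 and 11.88 on the control arrays and 10.43, 10.30 and 10.62 on the shLSD1 #1 arrays. The groups were more than 1 unit apart at their nearest arrays, and NFKBIA fell by 1.36 ± 0.12. TNFAIP3, a ubiquitin-editing inhibitor, read 9.004, 9.09 and 9.10 on the control arrays and 7.90, 8.08 and 7.67 on the shLSD1 #1 arrays. It fell by 1.18 ± 0.13 and TNIP1, its binding partner, by 1.14 ± 0.12. CCL2, a monocyte chemokine, was the most abundant cytokine of the list to fall, by 1.22 ± 0.11 from 13.78, 13.86 and 13.85. CXCL1, a neutrophil chemokine, fell by 1.19 ± 0.21, IL32 by 1.39 ± 0.18, and IL6 was at least 1.74-fold lower. TNFAIP3, TNIP1, CXCL1 and IL32 did not pass with the spike-in block (adjusted p between 0.0649 and 0.0833). Of the 14 falls, 11 to 13 were called with 1 array left out, and those of NFKBIA, IL6 and CCL2 remained with the block.

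Of 36 immediate early and MAP kinase feedback genes, 7 fell and 3 rose, where 8.42% of all named clusters fell and 8.48% rose. Of the 18 that were expressed, 5 fell and 2 rose, where 14.3% of expressed clusters fell and 14.1% rose. Apart from KLF4, JUNB, an AP-1 subunit, changed by -1.76 ± 0.22, with 1 hairpin array below the negative controls, and ETV5, a target of ERK signalling, by -1.09 ± 0.13. ATF3, a stress-induced member of the ATF family, rose by 0.85 ± 0.13, opposite to ATF4. Calls that ended with the spike-in class in the fit were those of JUNB, ETV5 and ATF3 (adjusted p between 0.0518 and 0.182).

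Genes of genome duplication and repair that passed were nearly all higher, by smaller amounts. Of 44 DNA replication genes, 11 rose and 0 fell, with a median of 0.20, and of the 39 that were expressed 10 rose, where 14.1% of expressed clusters rose and 14.3% fell. PRIM1, the catalytic primase subunit, read 9.91, 9.88 and 10.02 on the control arrays and 11.30, 11.19 and 10.99 on the shLSD1 #1 arrays. The groups did not overlap, and PRIM1 rose by 1.22 ± 0.12. PCNA, the sliding clamp of DNA polymerases, rose by 0.84 ± 0.12, and EXO1, an exonuclease of mismatch repair, by 1.24 ± 0.19. Of 27 genes of homologous recombination and the Fanconi pathway, 7 rose and 1 fell, with a median of 0.33. BLM, a helicase, rose by 1.12 ± 0.15 and XRCC2, a recombination protein, by 0.87 ± 0.12. CHEK2, a checkpoint kinase, fell by 1.10 ± 0.16, from 9.62, 9.70 and 9.86 to 8.76, 8.81 and 8.32. Among 40 mitosis genes, all expressed, 8 rose and 1 fell, together under the 28.3%, or 15 and 3 with a trended robust prior, with CCNB2 at 0.84 and MKI67 at 0.72. The E2F motif TTTNGCGC was in 14 of 37 promoters found for the replication list (37.8%), in 3 of 10 of its members past the test (30%), in 4.35% of promoters of expressed genes that rose, in 2% of those that fell and in 3.42% of all expressed genes. The spike-in block ended the calls of PCNA, EXO1, BLM, XRCC2, CHEK2, CCNB2 and MKI67 (adjusted p between 0.123 and 0.251). Of the 11 rises of replication genes, 8 to 10 were called with 1 array left out, and that of PRIM1 alone remained with the block. In mitosis the 8 rises became 5 without control replicate 1 or 2 or shLSD1 #1 replicate 4 or 5.

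The inhibitor p21 and several death genes fell. CDKN1A, which encodes p21, a brake on cyclin-dependent kinases, read 11.38, 11.23 and 11.24 on the control arrays and 9.66, 9.48 and 9.14 on the shLSD1 #1 arrays. It fell by 1.86 ± 0.15 (adjusted p = 4.47e-05). CCND1, cyclin D1, rose by 1.04 ± 0.11 and CDK6, its kinase partner, by 1.52 ± 0.25 from values of which 1 lay below the negative controls, while CCND3, cyclin D3, fell by 0.85 ± 0.10. Of 26 p53 targets, 6 rose and 4 fell, or 3 rose in the fit of 6 arrays. The 19 expressed members gave 4 rises and 4 falls, so the list moved both ways. With 1 array left out the falls numbered 4 to 5. Of 29 apoptosis regulators, 11 fell and 3 rose, with a median of -0.34, where 8.42% of all named clusters fell and 8.48% rose. Once low values were set to the negative control percentile, that median was -0.21. The 22 expressed members gave 11 falls and 2 rises, where 14.3% of expressed clusters fell and 14.1% rose. TNFRSF10B, a death receptor for TRAIL, read 11.69, 11.46 and 11.59 on the control arrays and 10.07, 10.22 and 10.18 on the shLSD1 #1 arrays. It fell by 1.42 ± 0.11, with the replicates close together. APAF1, the core of the apoptosome, fell by 1.04 ± 0.15, and PMAIP1 (NOXA) and BCL2L11 (BIM), both drivers of cell death, by 1.25 ± 0.13 and 1.06 ± 0.12. Genes that restrain cell death moved both ways, with MCL1 at -0.94 and XIAP at 0.88. Under the spike-in block CCND1, CDK6, CCND3, PMAIP1, BCL2L11, MCL1 and XIAP no longer passed (adjusted p between 0.0593 and 0.18). Among p53 targets the 6 rises became 2 without control replicate 3 or shLSD1 #1 replicate 4 or 6 and 3 without control replicate 1 or 2, and among apoptosis regulators the 3 rises became 1 without control replicate 1 or 2 or shLSD1 #1 replicate 4.

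Chromatin genes were read in 3 lists. Of 18 CoREST partners on the array, HDAC2 alone rose and 0 fell, with 12 of them expressed. Of 20 Polycomb, DNA and H3K9 methylation genes, 9 rose and 0 fell, with a median of 0.17, where 8.48% of all named clusters rose. The 14 expressed members gave 7 rises and 0 falls, where 14.1% of expressed clusters rose. SUZ12, a core subunit of Polycomb repressive complex 2, rose by 0.78 ± 0.17, SUV39H2, an H3K9 methyltransferase, by 0.78 ± 0.17, and UHRF1, which guides maintenance methylation, by 0.72 ± 0.13. DNMT1, the maintenance methyltransferase, was at least 1.35-fold higher and below the negative controls on all control arrays. With 1 array left out, the 9 rises of this list became 4 without control replicate 1 or 2 or 3 and 5 without shLSD1 #1 replicate 4 or 6, and with the spike-in block 0 remained. The SUZ12 call ended without control replicate 2 (adjusted p = 0.0533), and that of DNMT1 without the same array (0.0606) or shLSD1 #1 replicate 6 (0.062). Among 28 histone genes, 1 rose and 2 fell, or 6 fell with a trended robust prior. The chromatin protein gene HMGA1 and the histone acetyltransferase gene HAT1, both among the 500 named clusters of highest signal, rose by 0.83 ± 0.11 and 0.87 ± 0.11. Other large rises at high signal were those of MOSPD1 (1.20 ± 0.10), FAM3C (1.15 ± 0.10) and SRP14, of the signal recognition particle (0.84 ± 0.12). HMGA1, HAT1 and SRP14 did not pass with the spike-in block (adjusted p between 0.0926 and 0.153).

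Matrix and adhesion genes moved both ways. TIMP3, a matrix-bound inhibitor of metalloproteinases, read 11.43, 11.42 and 11.51 on the control arrays and 13.31, 13.40 and 13.23 on the shLSD1 #1 arrays. TIMP1, its secreted relative, read 16.23, 16.28 and 16.15 on the control arrays and 15.01, 15.28 and 14.96 on the shLSD1 #1 arrays. TIMP3 rose by 1.86 ± 0.10 and TIMP1 fell by 1.14 ± 0.12, neither with overlap between the groups. Of 43 matrix enzymes and protease regulators, 16 fell and 5 rose, where 8.42% of all named clusters fell and 8.48% rose, and in the fit of 6 arrays 3 rose. The 20 expressed members gave 13 falls and 1 rise, where 14.3% of expressed clusters fell and 14.1% rose. PLAUR, the urokinase receptor, fell by 1.29 ± 0.12, F3, tissue factor, by 1.31 ± 0.21, and LOX, which crosslinks collagen, was at least 1.52-fold lower. SERPINH1, the collagen chaperone, fell by 1.00 ± 0.11 from 14.60, 14.75 and 14.73. Calls that ended with the spike-in class in the fit were those of TIMP1, PLAUR, F3 and LOX (adjusted p between 0.0518 and 0.356). In that fit 0 of the 16 falls and 1 of the 5 rises of the protease list remained. SERPINH1, which is outside that list, still passed. Of the protease list the 5 rises became 3 without control replicate 1 or 2 or shLSD1 #1 replicate 4 or 6.

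Collagens and matrix proteins were balanced, with 6 of 45 higher and 6 lower, where 16.9% of all named clusters passed. POSTN, periostin, read 11.99, 12.12 and 12.18 on the control arrays and 13.87, 13.77 and 13.68 on the shLSD1 #1 arrays. It rose by 1.68 ± 0.11, and LUM, the proteoglycan lumican, by 2.19 ± 0.19, although 2 of its control arrays lay below the percentile. EFEMP1, which encodes fibulin-3, fell by 1.61 ± 0.16 from 13.30, 13.47 and 13.32, and COL6A1, a chain of collagen VI, by 1.03 ± 0.13. NID1, a basement membrane linker, rose by 1.21 ± 0.10, while LAMB1, a laminin chain, fell by 0.84 ± 0.15. POSTN, LUM, FAP and THY1 are on the list of fibroblast markers, of which 3 of 9 rose and 2 fell. The surface proteins FAP and THY1 fell by 2.00 and 1.68, so these markers did not move as one. FAP was above the negative controls on only 1 of the 3 hairpin arrays. At cell junctions, 7 of 35 genes fell and 4 rose, or 7 rose when the clusters of lowest signal were dropped. NECTIN2, an adhesion molecule that is also a ligand of immune receptors, fell by 1.37 ± 0.11, CDH3, P-cadherin, by 1.10 ± 0.15 and CLDN1, a tight junction protein, by 0.85 ± 0.12, while PCDH7, a protocadherin, rose by 1.11 ± 0.13. The spike-in block ended the calls of COL6A1, LAMB1, CDH3, CLDN1 and PCDH7 (adjusted p between 0.0744 and 0.4). Of the collagens and matrix proteins the 6 falls became 3 without shLSD1 #1 replicate 4, and at junctions the 7 falls became 4 without control replicate 3.

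Growth factor ligands and receptors moved both ways. FGF2, basic fibroblast growth factor, read 13.37, 13.43 and 13.50 on the control arrays and 11.87, 11.98 and 11.67 on the shLSD1 #1 arrays. It fell by 1.60 ± 0.13, and VEGFC, a lymphatic growth factor, fell by 1.07 ± 0.12. MET, the hepatocyte growth factor receptor, read 11.70, 11.59 and 11.68 on the control arrays and 12.93, 12.91 and 12.85 on the shLSD1 #1 arrays. MET rose by 1.24 ± 0.10. HBEGF, a ligand of the EGF receptor, rose by 1.88 ± 0.13 from values around the negative control percentile, and 1 control array lay below it. Over the 44 ligands and receptors, 7 rose and 5 fell, where 16.9% of all named clusters passed, and in the fit of 6 arrays 4 rose. In the TGF-beta and BMP list 6 of 39 rose and 5 fell, against 11 rises with a trended robust prior and 3 falls in the fit of 6 arrays. Of its 19 expressed members 3 rose and 3 fell, where 14.1% of expressed clusters rose and 14.3% fell. TGFBR1, the type I receptor, rose by 1.23 ± 0.11, ID2, a target of BMP signals, by 1.23 ± 0.12, and GDF15, a stress-induced ligand, by 1.07 ± 0.22. TGFBR3, also of this list, fell by 0.69 ± 0.10. Of 23 YAP and TEAD genes, 4 rose and 4 fell, with rises in CCN2 (1.30) and NT5E (1.02) beside ANKRD1. F3, named above, was one of the falls of this list (-1.31). Of the 19 expressed members of that list 3 rose and 4 fell. Under the spike-in block TGFBR3, GDF15, CCN2, NT5E and F3 no longer passed (adjusted p between 0.0566 and 0.356). With 1 array left out, the 7 rises of ligands and receptors became 3 without control replicate 2 or shLSD1 #1 replicate 4 and 4 without control replicate 3 or shLSD1 #1 replicate 6, and the 5 falls there became 3 without control replicate 2 or 3 or shLSD1 #1 replicate 4 or 6. In the TGF-beta list the 6 rises became 3 without control replicate 2 or shLSD1 #1 replicate 4, and the 5 falls became 1 without control replicate 3 and 3 without control replicate 1 or 2 or shLSD1 #1 replicate 5.

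Wnt genes that passed were higher. Of 35 on the array, 9 rose and 0 fell, where 8.48% of all named clusters rose and 8.42% fell, and 17 were below the negative controls on all 6 arrays. Their median was 0.20, or 0 once low values were set to the negative control percentile, and 2 fell with a trended robust prior or when the clusters of lowest signal were dropped. SFRP1, a secreted Wnt antagonist, read 8.22, 8.05 and 7.87 on the control arrays and 9.08, 9.48 and 9.21 on the shLSD1 #1 arrays. It rose by 1.21 ± 0.14. LGR4, a receptor for R-spondins that strengthens Wnt signals, rose by 0.87 ± 0.11, and the ligands WNT5B and WNT10A by 0.87 ± 0.20 and 0.82 ± 0.12. With arrays left out the count was 6 to 8, lowest without shLSD1 #1 replicate 4, where WNT5B no longer passed, and with the spike-in block SFRP1 alone remained. Primary cilium and Hedgehog genes gave 8 rises and 1 fall of 33. Of the 16 that were expressed, 6 rose and 1 fell, where 14.1% of expressed clusters rose and 14.3% fell. Beside TULP3, WDR35 and IFT81, both of intraflagellar transport, were at least 1.76-fold and 1.42-fold higher, and IFT80 rose by 0.84 ± 0.16. BBS2, of the BBSome cargo complex, fell by 0.73 ± 0.19. LGR4, WNT5B, WNT10A, IFT81, IFT80 and BBS2 did not pass with the spike-in block (adjusted p between 0.0595 and 0.501).

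Axon guidance genes moved both ways. Of 33 on the array, 8 rose and 4 fell, or 7 fell with a trended robust prior. Among the falls was SEMA4B, a semaphorin, by 0.74 ± 0.12. SEMA5A, a transmembrane semaphorin, read 9.34, 9.64 and 9.68 on the control arrays and 11.38, 11.26 and 11.61 on the shLSD1 #1 arrays. SEMA3E, a secreted semaphorin, read 11.43, 11.29 and 11.52 on the control arrays and 12.85, 12.89 and 12.89 on the shLSD1 #1 arrays. Both were high on all hairpin arrays, with rises of 1.86 ± 0.14 and 1.46 ± 0.11, and SEMA3A and SEMA3C rose by 0.94 ± 0.11 and 0.80 ± 0.11. Of 27 neuronal genes of the kind that the repressor REST silences, 22 were below the negative controls on all 6 arrays, 4 rose and 2 fell. CPE, a carboxypeptidase of neuropeptide processing, was at least 1.78-fold higher, SYT11, a synaptotagmin, at least 1.69-fold, RAB3B, a GTPase of regulated secretion, rose by 1.45 ± 0.17 and L1CAM, a neural adhesion molecule, by 0.79 ± 0.17. Calls that ended with the spike-in class in the fit were those of SEMA3C, SYT11, RAB3B and L1CAM (adjusted p between 0.0561 and 0.174). Of the 4 falls of the guidance list 0 remained with that block, so the call of SEMA4B ended too. In the guidance list the 8 rises became 5 without control replicate 1 or shLSD1 #1 replicate 5, and the 4 falls became 2 without control replicate 2 or shLSD1 #1 replicate 4.

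Counts for genes of protein production and turnover varied with the fit. All 35 cytosolic ribosomal protein genes were expressed, and 4 fell and 0 rose. Of 28 proteasome genes 1 rose and 1 fell, and of 33 ribosome biogenesis genes 1 rose and 0 fell, each list under the 28.3% of expressed clusters past the test. With a trended robust prior 16 ribosomal protein genes and 7 proteasome genes fell and 5 biogenesis genes rose. Heat shock genes gave 4 rises and 0 falls of 20, endoplasmic reticulum chaperones 5 falls and 0 rises of 28, and autophagy genes 4 falls and 1 rise of 30. With the same prior those were 11 rises and 2 falls of heat shock genes, 8 falls of chaperones and 9 falls of autophagy genes. RB1CC1, a scaffold of the kinase that starts autophagy, was that rise, at 1.10 ± 0.17. Of 34 lysosomal genes 6 fell and 2 rose. CTSL, cathepsin L, fell by 1.17 ± 0.11 from 13.66, 13.88 and 13.84. Keratins and other intermediate filaments gave 1 rise among 14, and VIM, vimentin, was at -0.07 ± 0.10 (adjusted p = 0.695). The spike-in block ended the call of RB1CC1 (adjusted p = 0.235). With 1 array left out, the 4 falls of ribosomal protein genes became 2 without control replicate 1 or 2 or shLSD1 #1 replicate 6, the 4 rises of heat shock genes became 2 without control replicate 1 or 2 or 3 or shLSD1 #1 replicate 4 or 5, the 6 falls of lysosomal genes became 3 without control replicate 1 or 3 or shLSD1 #1 replicate 4 and the 4 falls of autophagy genes became 2 without control replicate 2 or 3 or shLSD1 #1 replicate 6.

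**Figure D4:**
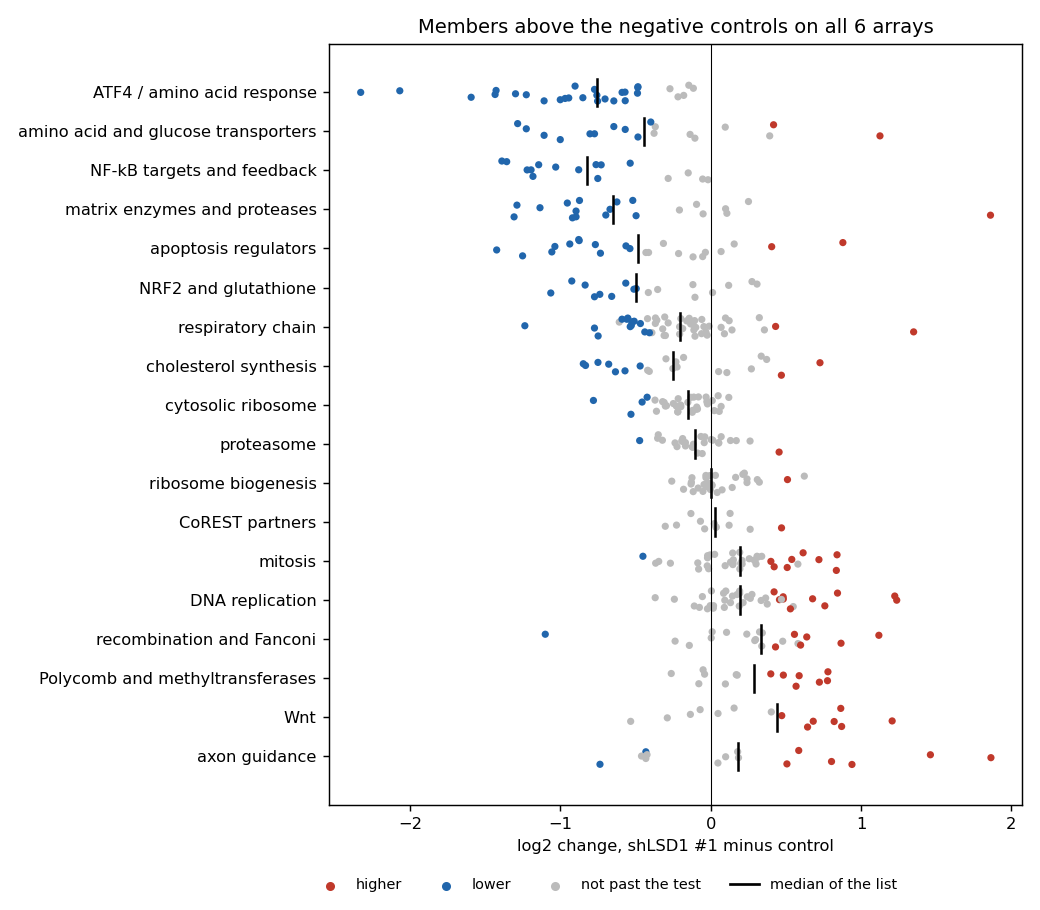
Log2 change of each list member that was above the negative controls on all 6 arrays (1 point per gene, red higher and blue lower past the limma test, grey not past it), with the median of the members shown as a bar, for 18 lists. Points of the ATF4, NF-kB, transporter and protease lists lie mostly left of 0, those of the Wnt, Polycomb and replication lists mostly right of it, and those of the ribosome and proteasome lists around it.

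A group of placental genes was noticed after the values were seen and is given as a description. The pregnancy-specific glycoproteins (PSG genes) are secreted by the placenta, lie in one cluster and are so alike that their probes may read each other's transcripts. Of 10 on the array, 7 passed, all higher, and 6 of the 10 were expressed on all 6 arrays. Among all named clusters 8.48% were higher. PSG9 read 12.23, 12.34 and 12.21 on the control arrays and 13.55, 13.72 and 13.45 on the shLSD1 #1 arrays. It was the most abundant and rose by 1.31 ± 0.11. PSG1 read 8.33, 8.45 and 8.46 on the control arrays and 9.85, 10.25 and 9.98 on the shLSD1 #1 arrays. It rose by 1.61 ± 0.14, and PSG4, PSG6 and PSG8 changed by 1.11, 1.27 and 1.32. PSG5, also abundant, was at 0.24 ± 0.14 and did not pass (adjusted p = 0.278). ALPP, the placental alkaline phosphatase next to ALPG and nearly identical to it, was at least 2.2-fold higher. PLAC1, a trophoblast membrane protein, rose by 1.76 ± 0.17, and its lowest control array lay below the percentile. Under the spike-in block PSG4, PSG6, PSG8 and PLAC1 no longer passed (adjusted p between 0.0575 and 0.189).

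**Figure D5:**
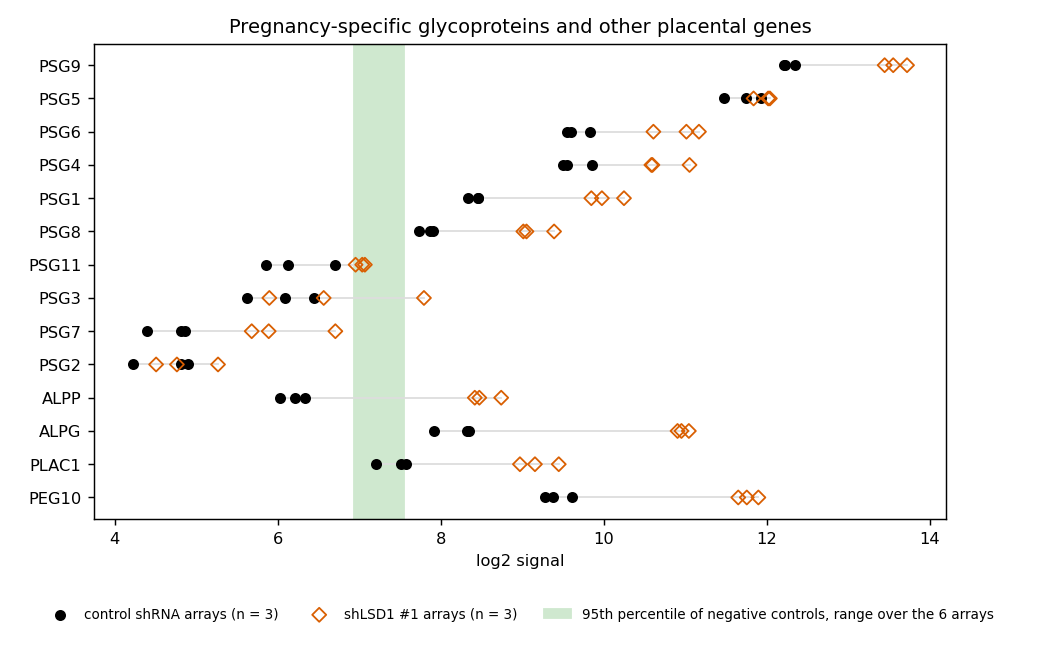
Log2 signal of the PSG genes, ALPP, ALPG, PLAC1 and PEG10 on the 3 control and 3 shLSD1 #1 arrays, 1 point per array, with a band for the range of the negative control percentiles. PSG1, PSG9 and ALPG are higher on every hairpin array, while the points of PSG2 and PSG3 overlap between the groups.

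Some of the large changes lay in neighbouring genes. By the gene order of the RefSeq annotation of GRCh38.p14, 3752 adjacent pairs had both genes expressed, and in 292 pairs (7.78%) both passed the test, near the 7.73% that the shares of first and second genes past the test give as a product. These moved the same way in 185 pairs (63.4%), 95 higher and 90 lower, and in opposite ways in 107. Where both changed at least 2-fold, 14 pairs moved the same way and 0 in opposite ways. Counted at any signal, 34 such pairs moved the same way and 6 in opposite ways, among them RAB15 with FNTB, TNFRSF10B with TNFRSF10D and BCAM with NECTIN2. The 14 pairs included genes of the same family, so they are not all separate observations. These were PSG8 with PSG1, PSG1 with PSG6, PSG4 with PSG9, SLC2A14 with SLC2A3 and A2M with PZP. DPM3, a subunit of dolichol phosphate mannose synthase, read 9.91, 10.15 and 9.95 on the control arrays and 8.32, 8.63 and 8.03 on the shLSD1 #1 arrays. It lies next to SLC50A1 and fell by 1.67 ± 0.19. IQCK, next to GPRC5B, fell by 1.64 ± 0.19. The rises held the protease inhibitors A2M and PZP, neighbours and relatives, at 1.81 ± 0.11 and 1.44 ± 0.11. ICA1L, next to FAM117B, went from 7.42, 7.54 and 8.18 to 10.16, 9.79 and 9.91, and control replicate 2 lay just below the percentile of its array. CDH18, next to CDH12, rose by 1.54 ± 0.12. The pairs named here were chosen after their values were seen, and overlapping transcripts or shared probe signal were not tested. DPM3 and IQCK did not pass with the spike-in block (adjusted p between 0.0883 and 0.104).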

How the data were processed

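Total RNA of ACC-MESO-1 cells was hybridized to 9 Clariom S arrays, 3 each for control shRNA, shLSD1 #1 and shLSD1 #2, and the groups were taken from the labels. The deposited values are log2 signals per transcript cluster, made by the authors with RMA in Affymetrix Expression Console 1.4, per the submitters' processing notes. The base of 2 is the RMA default, and no source used here gives the library files. RMA forces arrays to a common distribution, so changes are relative to the bulk of genes. Of 24351 probe sets, 2903 control probes were left out, and 3739 clusters (17.4%) without a symbol entered the fit alone. Gene names came from the array's annotation table, with 1 cluster, that of highest mean, standing for each of 20 genes with several.

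The 3 groups were fitted together by limma 3.58.1 in R 4.3.3 (lmFit, eBayes without trend). The two-sided p-values of all 21448 clusters were adjusted together (Benjamini-Hochberg) and read at 0.05. Values with ± are log2 changes and their standard errors. Where a group lay below the negative control percentile on all its arrays, the fold is a lower bound against the mean percentile of that group (7.40 for control, 7.17 for shLSD1 #1). An exact permutation test of 3 against 3 arrays cannot go below p = 0.1 and was not used. Precision is limited by the number of arrays. On simulated data with planted changes the fit was tested first.

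The members, the 54 gene lists (3 of them set aside) and the tests were chosen with earlier results of these data known. The rule for named genes took the 12 largest rises and 12 largest falls among expressed genes, the 6 largest lower-bound folds each way, up to 4 members of each list past the test, the 5 largest changes each way among the 500 clusters of highest signal, the mesothelial markers, RCOR1, HDAC1 and HDAC2. Further members, among them ATF4, ASNS, CBS, AARS1, NARS1, SLC7A5, TNFAIP3, TNIP1, CXCL1, MCL1, XIAP, SEMA3C, SEMA4B, BBS2 and VIM, were named after their values were seen. Lists are described by counts and medians, without a test of their own. Promoter windows and gene order came from RefSeq tables of GRCh38.p14. Among genes with several windows the first was used. The NF-kB motif was shortened by 1 base after a longer form, matched by fewer promoters, had been counted. Alternatives were cyclic loess, a repeated quantile normalization, array medians set to 0, a filter that dropped the clusters of lowest signal, a trended robust prior, array weights, a fit of 6 arrays, a block for the spike-in class, and omission of each array in turn.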

Additional observations from a re-analysis of the deposited data

How the results depend on the processing

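The counts of clusters past the test (3385 in all, 1683 higher, 1702 lower, 817 at least 2-fold, 2128 expressed) stayed within 1.5 times under every alternative but one. With a block for the spike-in class they were 399, 184, 215, 393 and 226. Of the 3385 calls 386 (11.4%) remained, 3381 kept their sign, and the median standard error over all clusters went from 0.17 to 0.30. Because the class is confounded with shLSD1 #1, that fit is no separate check. Of 200 named genes past the test, 118 calls ended with it (adjusted p between 0.0506 and 0.877). With 1 array left out, 2375 to 2993 clusters passed, 1494 to 1796 of them expressed. The calls of H2AC4, HSPA1A, HSPA4, PSMD12 and LAMB2 ended in each of the 6 omissions.

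A sign change occurred only in named genes that had not passed. CALB2 had 0.228 with the block. KRT5 had 0.011 with array weights. With 1 array left out, the log2 changes ran from -0.245 to 0.0917 for CALB2, from -0.243 to 0.0777 for KRT5, from -0.0297 to 0.441 for LRRN4, from -0.0475 to 0.376 for KRT7 and from -0.19 to 0.012 for GPM6A. The cause was not tested. Clusters near the negative controls had standard errors clearly above those of bright ones, so smaller changes there were not detectable. No paired analysis was possible because the array titles number the replicates through all groups, so that the groups share no replicate number.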

Other observations

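Some muscle genes outside the contractile list were higher in shLSD1 #1 cells. MYPN, which encodes the sarcomere protein myopalladin, read 11.19, 11.52 and 11.13 on the control arrays and 12.69, 13.10 and 12.53 on the shLSD1 #1 arrays. It rose by 1.49 ± 0.17 (limma adjusted p = 0.00035). MYH15, a myosin heavy chain, read 7.90, 7.67 and 7.67 on the control arrays and 9.66, 9.35 and 9.66 on the shLSD1 #1 arrays. The groups did not overlap, and MYH15 rose by 1.81 ± 0.14. Both genes were named after their values were seen.

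Ion channels, nuclear receptors, clock and HOX genes gave scattered changes. Of 45 channel and calcium pump genes, 6 rose and 7 fell, or 10 rose with a trended robust prior. CLCN3, a chloride-proton exchanger of endosomes, read 11.05, 10.91 and 10.91 on the control arrays and 12.42, 12.25 and 12.23 on the shLSD1 #1 arrays. It rose by 1.34 ± 0.11, and TRPC1, a cation channel, by 1.16 ± 0.17. Of 27 nuclear receptors, 3 rose and 1 fell, or 6 rose when the clusters of lowest signal were dropped. The rises were those of PPARG, of NR1D2, a clock repressor (0.76 ± 0.14), and of PPARD (0.64 ± 0.12). NR3C1, the glucocorticoid receptor, read 12.86, 12.83 and 12.86 on the control arrays and 11.54, 11.71 and 11.54 on the shLSD1 #1 arrays. It was low on all hairpin arrays, and NR3C1 fell by 1.25 ± 0.11. Of 17 clock genes, 4 rose and 1 fell, or 7 rose with a trended robust prior. CLOCK, a core activator of the clock, rose by 0.90 ± 0.12 and BHLHE40, a repressor of it, fell by 1.10 ± 0.12. Without shLSD1 #1 replicate 4, 2 clock genes rose. Of 19 HOX genes, 14 were below the negative controls on all 6 arrays, while HOXC13 rose by 1.07 ± 0.14 and HOXB2 fell by 1.16 ± 0.15. LIMK1, a kinase that regulates actin turnover, rose by 1.30 ± 0.15. Calls that ended with the spike-in class in the fit were those of TRPC1, PPARG, NR1D2, PPARD, CLOCK, BHLHE40, HOXC13 and HOXB2 (adjusted p between 0.0555 and 0.208).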
